A study of Mus musculus with 6 samples.

Results

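A set of 9 genes known for Kupffer cells, the resident macrophages of the liver sinusoid, was followed through 6 bulk RNA-Seq libraries of mouse hepatocytes: Marco, Clec4f, Cd5l, Vsig4, Timd4, Adgre1, Csf1r, Cd68 and Lyz2. They were picked by gene name from the 55450 genes of the count files, matched by versioned Ensembl identifier to GENCODE M21, and all 9 were found. The mice were males, C57BL/6 in the labels and C57BL/6J in the study's methods, 10 to 12 weeks old by the labels and somewhat younger by the study's methods, on normal diet, and hepatocytes were prepared by 2-step collagenase perfusion either without regeneration (0 h, 3 libraries) or 48 h after partial hepatectomy (PHx, an operation that takes away a large part of the liver and sets off regrowth, 3 libraries). The labels place all 6 samples under PHx, and the study describes the 0 h animals as healthy. Perfusion separates hepatocytes from other cells without a sort on a surface marker, so RNA of other liver cells can be carried along. The preparations had the markers of their label, with albumin (Alb) at 55123 to 72883 CPM (read counts relative to the effective size of the library) at 0 h and at 32307 to 39692 CPM at 48 h.

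Kupffer cells line the hepatic sinusoids, where they clear bacteria, particles, dying cells and aged erythrocytes from portal blood. They do so with scavenger receptors, complement receptors and receptors for phosphatidylserine, and they depend on signals through the Csf1 receptor for survival. In regeneration after PHx they are known as a source of cytokines that prime hepatocytes to enter the cell cycle.

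Gene counts summed to 31419443 to 36346220 per library, and 3 counts, the smallest level taken as measurable, corresponded to 0.0825 to 0.0955 CPM before scaling. CPM values below were scaled by the trimmed mean of M-values (TMM) of edgeR. All 9 genes passed the filter of at least 10 counts in at least 3 libraries, as did 17037 genes in all. Together they took 0.00582% to 0.00881% of the gene counts at 0 h and 0.00865% to 0.0122% at 48 h. These are bulk samples, so more cells of a type and more RNA per cell cannot be told apart, and the cells from which these reads came were not identified.

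The 9 genes did not move together between the time points. Marco was about 9-fold higher at 48 h after PHx, Cd5l and Cd68 were about 1.7-fold and 1.6-fold higher, and Lyz2 was at about 0.6 of its 0 h level. Clec4f, the gene most restricted to Kupffer cells, and Vsig4, Timd4, Adgre1 and Csf1r overlapped between the time points. The set was proposed with this contrast already known, with Marco chosen for its difference, so the values of the 9 genes are given as a description and carry no p-value. In the fit over all genes (the quasi-likelihood test of edgeR, called where the Benjamini-Hochberg adjusted p was under 0.05), 3 of the 9 were called higher and 1 lower, beside 21.4% of all tested genes called higher, 19.3% called lower and 40.7% in either direction. The ranges of the 3 libraries did not overlap in the same 4 of the 9 genes, beside 52.7% of all tested genes, of which 27.8% were higher and 25.0% lower as shares of all genes tested. The median log2 fold change of the 9 was 0.14, beside -0.0033 over all genes tested.

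**Figure D1:**
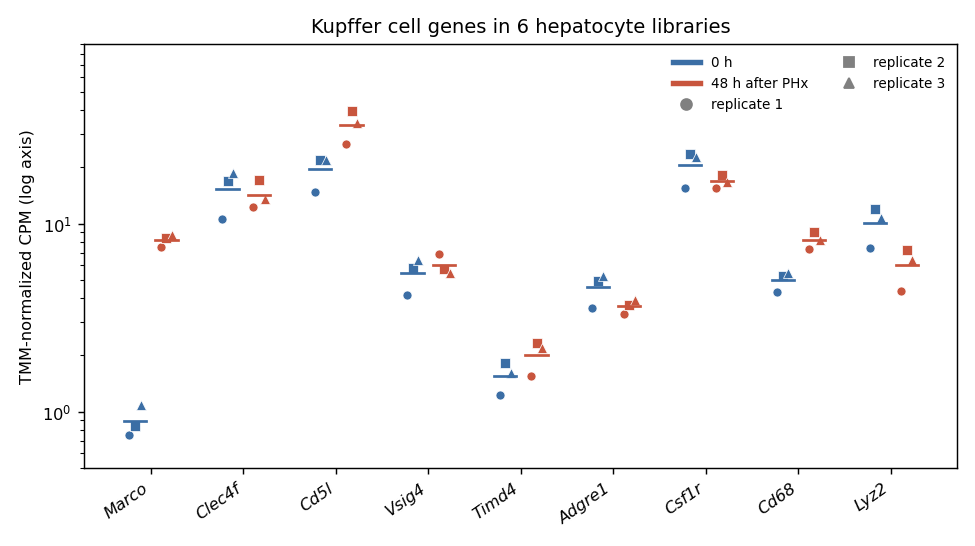
TMM-normalized CPM (log axis) of the 9 Kupffer cell genes in the 3 libraries at 0 h (blue) and the 3 at 48 h after PHx (red), with a symbol for each replicate and a horizontal bar at the arithmetic mean. Marco stood at 0.749 to 1.08 CPM at 0 h and at 7.54 to 8.65 CPM at 48 h, while the points of Clec4f, Vsig4, Timd4, Adgre1 and Csf1r overlapped.

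Among the receptors, Marco (ENSMUSG00000026390.7; GRCm38, chromosome 1, 120474538 to 120505024) encodes a class A scavenger receptor with a collagen-like stalk that binds bacteria and particles. At 0 h it had 22, 26 and 36 counts in replicates 1, 2 and 3, or 0.749, 0.838 and 1.08 CPM. At 48 h it had 254, 300 and 303 counts, or 7.54, 8.39 and 8.65 CPM. The highest 0 h library was far below the lowest 48 h library, and the 48 h libraries lay close to each other. The mean went from 0.890 ± 0.174 (SD, n = 3) to 8.20 ± 0.581 (SD, n = 3) CPM, with a log2 fold change of 3.19 (standard error, SE, 0.20). Of the 17037 genes tested, 369 (2.17%) had a larger log2 fold change.

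Clec4f (ENSMUSG00000014542.3; chromosome 6, 83644542 to 83656187) encodes a C-type lectin that in mice is restricted to Kupffer cells. Its level was 10.5, 16.8 and 18.6 CPM at 0 h and 12.2, 17.004 and 13.5 CPM at 48 h, from 309 to 617 counts per library. The 48 h libraries all fell within the range of the 0 h libraries, and the log2 fold change was -0.11 (SE 0.21). Its sign turned under other choices, with 0.10 when scaled by library size alone and 0.05 without replicate 3 at 0 h.

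Cd5l (ENSMUSG00000015854.7; chromosome 3, 87357881 to 87371073) encodes a secreted scavenger receptor cysteine-rich protein of tissue macrophages. It stood at 14.8, 21.8 and 21.7 CPM at 0 h and at 26.3, 39.7 and 34.3 CPM at 48 h. All 48 h libraries lay above all 0 h libraries, with a log2 fold change of 0.78 (SE 0.18). Its mean went from 19.4 ± 4.05 (SD, n = 3) to 33.4 ± 6.70 (SD, n = 3) CPM.

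The upstream sequences of 4 of these genes are shown because these genes differed in how they moved: Marco, Cd5l and Cd68 were higher at 48 h and Clec4f was not. They are RefSeq promoter windows on GRCm38.p6, shortened so as to stop before the GENCODE gene, and are written 5′ to 3′ on the strand of the gene. Capitals mark GAGGAA or its reverse complement, the core of sites bound by PU.1, a transcription factor of macrophages. The 4 genes printed do not show how the motif goes with the change. Vsig4, which overlapped between the time points and is not printed, held 2 matches.
Marco, chr1:120505025-120505274, minus strand: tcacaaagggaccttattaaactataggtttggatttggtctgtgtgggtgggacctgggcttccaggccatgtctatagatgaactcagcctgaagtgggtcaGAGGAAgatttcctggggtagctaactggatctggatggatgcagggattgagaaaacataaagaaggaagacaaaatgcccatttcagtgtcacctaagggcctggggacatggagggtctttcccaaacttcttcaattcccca
Cd5l, chr3:87357631-87357880, plus strand: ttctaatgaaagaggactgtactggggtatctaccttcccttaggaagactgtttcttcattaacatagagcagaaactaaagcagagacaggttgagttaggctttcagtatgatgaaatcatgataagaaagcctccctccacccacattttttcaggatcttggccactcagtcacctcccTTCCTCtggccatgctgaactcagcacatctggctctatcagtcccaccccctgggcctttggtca
Cd68, chr11:69666171-69666420, minus strand: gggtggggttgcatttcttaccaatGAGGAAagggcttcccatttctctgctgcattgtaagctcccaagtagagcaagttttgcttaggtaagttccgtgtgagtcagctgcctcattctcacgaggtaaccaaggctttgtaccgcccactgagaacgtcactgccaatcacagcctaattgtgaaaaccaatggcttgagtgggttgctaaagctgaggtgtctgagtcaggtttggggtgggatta
Clec4f, chr6:83656188-83656366, minus strand: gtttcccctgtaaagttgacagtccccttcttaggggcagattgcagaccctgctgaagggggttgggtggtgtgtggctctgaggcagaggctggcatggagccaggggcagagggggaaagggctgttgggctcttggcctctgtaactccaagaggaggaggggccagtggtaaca

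Windows of 250 bases before to 50 bases after the start were searched for 7 of the 9 genes. Adgre1 had no window in the set used, and Csf1r was left out of the search. On both strands, GAGGAA was in the windows of Marco, Cd5l, Vsig4 and Cd68 and not in those of Clec4f, Timd4 and Lyz2, and 28.3% of the 32851 windows of the table held it. The first base of the match lay 146 bases before the start in Marco and 66 in Cd5l. Cd68 had 2 matches, 1 at 225 bases before the start and 1, on the other strand, at 30 bases after it, outside the stretch printed, and Vsig4 had 2, at 155 and 53 bases before the start. Besides GAGGAA, 9 other motifs were searched on both strands, and several overlap each other. They were AGAGGAAGT, a longer PU.1 site (1.0% of all windows), TGANTCA (7.81%) and its form TGAGTCA (5.2%), the AP-1 site, TTCNNNGAA, the STAT site with a 3-base spacer (8.3%), CACGTG, the E-box of the MiT family (7.15%), and 4 that are given by name alone: the STAT site with a 4-base spacer (6.95%), a degenerate NF-kB site (50.8%) and 2 exact NF-kB sites (0.155% and 0.11%). The AP-1 forms matched Cd68, the degenerate NF-kB site matched Marco and Timd4, and the STAT site with a 4-base spacer matched Cd5l. The other 5 matched none of the 7 windows. Such matches describe letters only, and no binding was measured in these libraries.

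Vsig4 and Timd4 are receptors for other kinds of cargo. Vsig4 (ENSMUSG00000044206.3; chromosome X, 96247203 to 96293438), a complement receptor that captures C3 fragments, stood at 4.19, 5.77 and 6.38 CPM at 0 h and at 6.86, 5.71 and 5.45 CPM at 48 h. The ranges overlapped, with a log2 fold change of 0.14 (SE 0.19), although with library size only all 48 h libraries lay above the 0 h libraries. Timd4 (ENSMUSG00000055546.6; chromosome 11, 46810800 to 46844332), a receptor for phosphatidylserine on dying cells, is a marker of long-resident Kupffer cells. It stood at 1.23, 1.80 and 1.60 CPM at 0 h and at 1.54, 2.32 and 2.17 CPM at 48 h, from only 36 to 83 counts per library. Its ranges overlapped as well, with a log2 fold change of 0.38 (SE 0.25).

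Adgre1 and Csf1r mark macrophages more broadly. Adgre1 (ENSMUSG00000004730.15; chromosome 17, 57358691 to 57483527), which encodes an adhesion receptor long used as a surface marker of mouse macrophages, stood at 3.54, 4.96 and 5.27 CPM at 0 h and at 3.30, 3.69 and 3.91 CPM at 48 h. Csf1r (ENSMUSG00000024621.16), the receptor of Csf1 and Il34, stood at 15.5, 23.5 and 22.6 CPM at 0 h and at 15.5, 18.1 and 16.6 CPM at 48 h. In both genes the 2 upper libraries at 0 h were above all 48 h libraries, and replicate 1 at 0 h fell among them. The log2 fold changes were -0.34 (SE 0.20) for Adgre1 and -0.30 (SE 0.16) for Csf1r. Csf1r was called lower in the fit over all genes when replicate 1 at 0 h was left out, with a log2 fold change of -0.47. A gene on the other strand, Hmgxb3, overlaps 15.1% of the exon bases of Csf1r, so its counts are less certain where reads were counted without strand.

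Cd68 and Lyz2, which encode proteins of the lysosome and of phagocytic granules, differed in opposite directions. Cd68 (ENSMUSG00000018774.13; chromosome 11, 69664213 to 69666153), a lysosomal glycoprotein of the Lamp family in macrophages, stood at 4.32, 5.28 and 5.48 CPM at 0 h and at 7.33, 8.98 and 8.14 CPM at 48 h. All libraries at 48 h were above those at 0 h, with a log2 fold change of 0.70 (SE 0.16). Lyz2 (ENSMUSG00000069516.8; chromosome 10, 117277331 to 117282321), the lysozyme of macrophages and other myeloid cells, stood at 7.45, 11.9 and 10.8 CPM at 0 h and at 4.39, 7.22 and 6.40 CPM at 48 h. All libraries at 48 h were below those at 0 h, but only just, with a log2 fold change of -0.74 (SE 0.22). This was the 1 member called lower, and the call was lost with library size only (log2 fold change -0.53), when the ranges also overlapped, and without replicate 2 or 3 at 0 h or replicate 1 at 48 h (-0.61, -0.70 and -0.56). The close paralog Lyz1 had 1 count in 1 library and 0 in the others, so nearly all counted lysozyme reads were on Lyz2. Reads that hit both genes could have been left out of the counts.

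**Figure D2:**
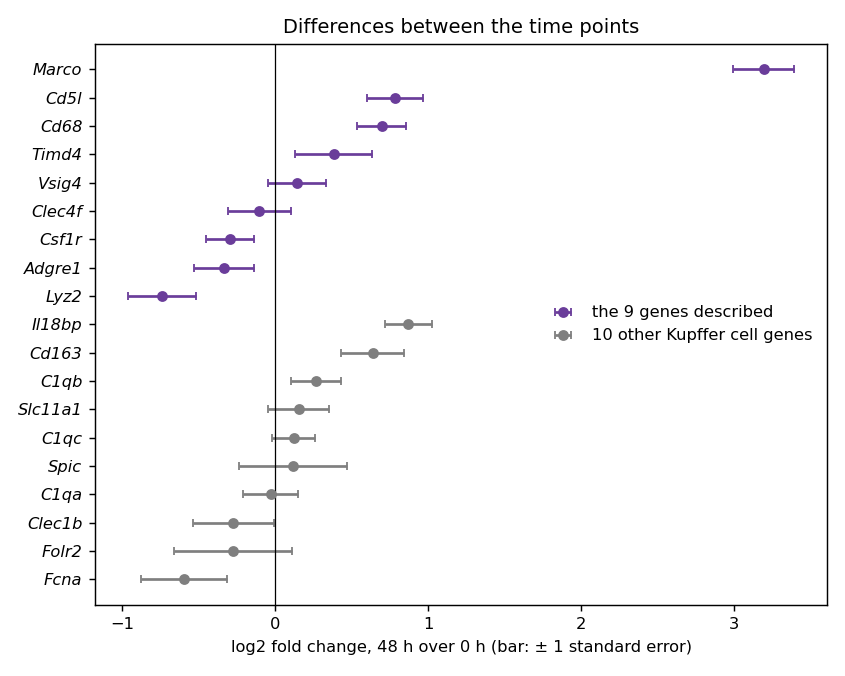
Log2 fold change of 48 h over 0 h (points) with ± 1 standard error (bars) from the fit over all genes, for the 9 genes described (purple) and 10 other Kupffer cell genes (grey). Marco lies at 3.19, and the other 18 genes lie between -0.74 and 0.87.

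Levels of different genes were compared per kilobase of annotated exon. At 0 h the order was Cd5l at 9.55 ± 1.99 CPM per kb, Lyz2 at 7.62 ± 1.75, Clec4f at 6.19 ± 1.72, Cd68 at 4.001 ± 0.493, Vsig4 at 3.67 ± 0.764, Csf1r at 3.56 ± 0.759, Adgre1 at 1.42 ± 0.285, Timd4 at 0.710 ± 0.135 and Marco at 0.462 ± 0.0902 (SD, n = 3 for each). From Cd5l down to Csf1r, each gene overlapped with the next over the 3 libraries, while Csf1r, Adgre1, Timd4 and Marco stood apart from one another. Marco was thus the lowest of the 9 at 0 h. At 48 h the order was Cd5l at 16.4 ± 3.29 CPM per kb, Cd68 at 6.48 ± 0.654, Clec4f at 5.76 ± 1.001, Lyz2 at 4.56 ± 1.10, Marco at 4.26 ± 0.302, Vsig4 at 4.05 ± 0.505, Csf1r at 2.90 ± 0.228, Adgre1 at 1.12 ± 0.0965 and Timd4 at 0.926 ± 0.190. Marco then overlapped with Lyz2 above it and Vsig4 below it, and Cd5l stood apart at the top.

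Among the 0 h libraries, replicate 1 stood apart. It had the lowest CPM in all 9 genes, at 0.687 to 0.860 of the gene's 0 h mean, whereas it was the lowest in 30.3% of all genes tested. It was also the lowest in 9 of the 10 other Kupffer cell genes, in 13 of 15 genes shared by macrophages and other blood cells, and in 12 of 12 endothelial genes. At 48 h, replicate 1 was the lowest in 8 of the 9 genes and the highest in Vsig4, and it was the lowest in 34.4% of all genes tested. Replicate 1 at 48 h was also the lowest in 9 of 12 endothelial genes, but in 6 of 15 genes shared by macrophages and other blood cells and in 3 of the 10 other Kupffer cell genes. In 7 of those 10, replicate 3 at 48 h was the lowest, and the summed C1q genes stood at 38.4, 42.4 and 38.0 CPM in the 3 libraries. These shares describe 6 libraries and carry no test, since genes carried along with the same cells are not independent. Without replicate 1 at 0 h, the log2 fold change was 3.08 for Marco, 0.61 for Cd5l, 0.59 for Cd68, -0.92 for Lyz2 and -0.32 for Clec4f.

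**Figure D3:**
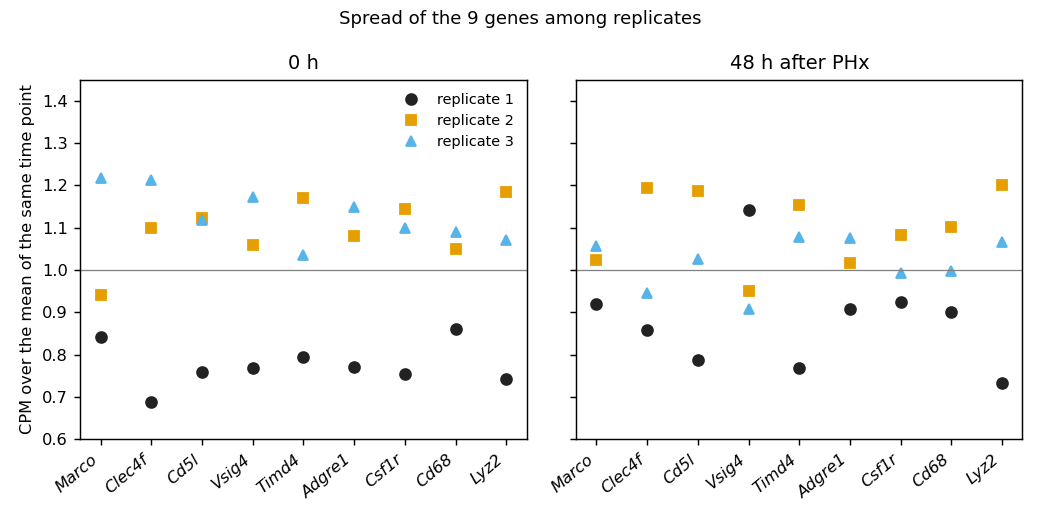
CPM of each of the 9 genes in each replicate, divided by the mean of the gene over the 3 libraries of the same time point, at 0 h (left) and at 48 h after PHx (right). Replicate 1 at 0 h is the lowest in all 9 genes, at 0.687 to 0.860 of the mean.

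Ratios of counts within a library do not depend on the scaling between libraries. The summed counts of C1qa, C1qb and C1qc, the 3 chains of complement C1q that Kupffer cells express strongly, served as the reference, a choice made after the data were seen. At 0 h the ratios of several genes were close between libraries. Cd5l had 53.1, 53.9 and 52.9 counts for 100 C1q counts, Adgre1 12.7, 12.3 and 12.8, and Csf1r 55.8, 58.2 and 55.1. At 48 h, Cd5l had 68.6, 93.6 and 90.2 counts for 100 C1q counts, all above 0 h. Adgre1 then had 8.58, 8.71 and 10.3, and Csf1r 40.3, 42.7 and 43.7, so that on this scale both were below 0 h in every library, which was not so in CPM.

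Marco had 2.69, 2.07 and 2.64 counts for 100 C1q counts at 0 h and 19.6, 19.8 and 22.8 at 48 h, a log2 ratio of the means of 3.07. Cd68 had 15.5, 13.1 and 13.3 at 0 h and 19.1, 21.2 and 21.4 at 48 h. Lyz2 had 26.8, 29.4 and 26.2 at 0 h and 11.4, 17.03 and 16.8 at 48 h. These 3 genes had separate ranges on this scale, in the directions seen in CPM, and so did Cd5l. The share of all genes with separate ranges was not counted for ratios to C1q or to Clec4f. In CPM it was 52.7% of the genes tested, so separate ranges by themselves were common. The ratios of Clec4f, Vsig4 and Timd4 overlapped between the time points, at 31.9 to 45.2, 13.5 to 17.9 and 3.89 to 5.71 counts for 100 C1q counts over all 6 libraries. Set against Clec4f alone, Marco had 4.98 to 7.12 counts for 100 Clec4f counts at 0 h and 49.3 to 64.2 at 48 h. Cd5l and Cd68 were higher and Lyz2 was lower in every 48 h library against Clec4f, too. Vsig4 overlapped against either reference, whereas for Adgre1, Csf1r and Timd4 the reference mattered. Adgre1 had 28.4 to 33.7 counts for 100 Clec4f counts at 0 h and 21.7 to 29.0 at 48 h, and Csf1r 122 to 148 and 106 to 126, so both overlapped. Timd4, which overlapped against C1q, had 8.59 to 11.7 at 0 h and 12.6 to 16.1 at 48 h, with all 48 h libraries above.

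**Figure D4:**
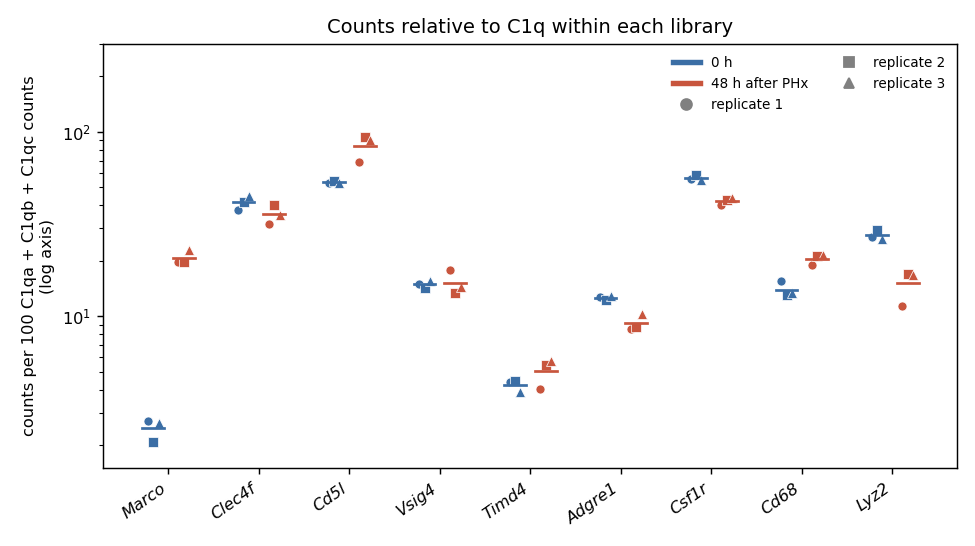
Counts of each of the 9 genes for 100 summed counts of C1qa, C1qb and C1qc in the same library (log axis), at 0 h (blue) and 48 h after PHx (red), with a symbol for each replicate and a horizontal bar at the mean. Marco moves from 2.07 to 2.69 at 0 h up to 19.6 to 22.8 at 48 h, and on this scale Csf1r and Adgre1 lie lower at 48 h in every library.

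Of 10 other genes known for Kupffer cells, 2 were higher at 48 h by the test of edgeR with adjustment over all genes, and 8 did not pass. Over all genes tested, 21.4% were called higher and 19.3% lower, and these shares also stand beside the counts of the lists below. Among the 8 were the 3 C1q genes. C1qa stood at 9.02 to 14.8 CPM at 0 h and 11.9 to 13.5 CPM at 48 h (log2 fold change -0.03, SE 0.18, edgeR adjusted p = 0.904). C1qb stood at 9.09 to 13.3 and 13.0 to 15.9 CPM (log2 fold change 0.26, SE 0.16, adjusted p = 0.224). With library size only, C1qb was called higher (log2 fold change 0.47, edgeR adjusted p = 0.0433). Il18bp, which encodes a binding protein that neutralizes interleukin 18, rose from 9.70 ± 0.535 to 17.7 ± 3.37 CPM (SD, n = 3; log2 fold change 0.87, SE 0.15, adjusted p = 0.00122). Cd163, the haemoglobin scavenger receptor, rose from 5.47 ± 1.68 to 8.50 ± 0.335 CPM (SD, n = 3; log2 fold change 0.64, SE 0.21, adjusted p = 0.0312), a call that was lost in 5 of the 6 fits leaving out 1 library, all but the fit without replicate 2 at 0 h, and with upper-quartile scaling (adjusted p up to 0.0943 over 13 alternatives). The median log2 fold change of the 10 was 0.12, beside -0.0033 over all genes tested. Fcna, a ficolin, had the lowest value of the 10 (log2 fold change -0.60, SE 0.28, adjusted p = 0.114), and it was called lower when replicate 1 at 0 h was left out (-0.88).

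Among 15 genes that macrophages share with other blood cells, 14 were tested and 1, Mpeg1, was higher. Mpeg1, which encodes the pore-forming protein perforin-2, rose from 47.8 ± 6.40 to 89.5 ± 21.5 CPM (SD, n = 3; log2 fold change 0.90, SE 0.17, edgeR adjusted p = 0.00182). Ptprc, the CD45 antigen of blood cells, stood at 2.48 to 3.58 CPM at 0 h and 2.52 to 3.41 CPM at 48 h, and Spi1, which encodes PU.1, at 1.84 to 2.65 and 1.75 to 3.16 CPM. Neither passed the test (edgeR adjusted p = 0.890 and 0.696). Cd14, the lipopolysaccharide co-receptor, stood apart in replicate 1 at 48 h, with 145 counts against 44 and 21 in the other 48 h libraries and 15 to 25 at 0 h. Its log2 fold change was 1.60 (edgeR adjusted p = 0.0603), and it was 2.04 without replicate 3 at 48 h (adjusted p = 0.00814) and 0.45 without replicate 1 (adjusted p = 0.423). Reads of Itgam, the untested gene, could have been lost in counting, as a gene on the same strand overlaps 68.7% of its exon bases.

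Marco belongs to the scavenger receptors. Of 12 others, 10 were tested, of which 1 was higher and 5 were lower at 48 h, beside 21.4% and 19.3% of all genes tested. Msr1, the class A receptor nearest to Marco in kind, stood at 2.89 to 5.35 CPM at 0 h and at 4.68 to 5.26 CPM at 48 h (log2 fold change 0.17, SE 0.22, edgeR adjusted p = 0.584). Scara5, a ferritin receptor of the same class, rose from 6.54 ± 3.95 to 20.9 ± 11.8 CPM (SD, n = 3; log2 fold change 1.68, SE 0.46, edgeR adjusted p = 0.0152), with a wide spread, and the call was lost without replicate 2 at 0 h or replicate 1 at 48 h (adjusted p up to 0.0584). The receptors that fell include Scarf1 (log2 fold change -1.15, edgeR adjusted p = 0.000251), Mrc1, the mannose receptor (-1.04, adjusted p = 0.000947), and Colec12 (-0.83, adjusted p = 0.000151). Mrc1 and Stab1 (log2 fold change -0.67) are genes of sinusoidal endothelium as well as of macrophages. Scara3 had 1 to 7 counts per library and was not tested.

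Signals to the Csf1 receptor and factors of macrophage identity were looked at in a list of 10 genes. Of these, 2 were higher, beside 21.4% of all genes tested. Csf1, a ligand of Csf1r, rose from 7.88 ± 1.90 to 14.0 ± 3.36 CPM (SD, n = 3; log2 fold change 0.83, SE 0.21, edgeR adjusted p = 0.0111), and its call was lost without replicate 2 at 48 h (adjusted p = 0.0556). Il34, the other ligand, had 8 to 20 counts per library (log2 fold change -0.35, SE 0.43, edgeR adjusted p = 0.546). Id3 rose slightly (log2 fold change 0.43, edgeR adjusted p = 0.0384), a call lost under 6 of 13 alternatives, among them the fits without replicate 1 or 3 at 0 h and without replicate 2 or 3 at 48 h.

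Of all these lists, the steepest decreases were in genes of MHC class II, with which macrophages, dendritic cells and B cells present antigen. H2-Aa went from 4.32, 4.38 and 6.35 CPM at 0 h to 0.594, 0.671 and 0.400 CPM at 48 h (log2 fold change -3.17, SE 0.27, edgeR adjusted p = 1.12e-05). H2-Ab1 went from 5.96, 6.64 and 11.1 CPM to 1.16, 1.17 and 1.17 CPM (log2 fold change -2.76, SE 0.26, edgeR adjusted p = 2.31e-05). H2-Eb1 went from 2.14, 2.55 and 3.52 CPM to 0.238, 0.252 and 0.286 CPM (log2 fold change -3.39, SE 0.31, edgeR adjusted p = 1.53e-05). Cd74, the invariant chain that escorts class II molecules, went from 14.2, 18.3 and 21.2 CPM to 2.02, 2.52 and 1.97 CPM (log2 fold change -3.04, SE 0.19, edgeR adjusted p = 1.01e-06). For every one of these 4 genes the 3 libraries at 48 h lay far below the 3 at 0 h, and the 4 calls held under each of 13 alternatives. The peptide exchange genes H2-DMa and H2-DMb1 and the class II transactivator Ciita did not pass (edgeR adjusted p = 0.416, 0.187 and 0.405). For 100 C1q counts, Cd74 had 45.3 to 51.6 counts at 0 h and 5.18 to 5.94 at 48 h.

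**Figure D5:**
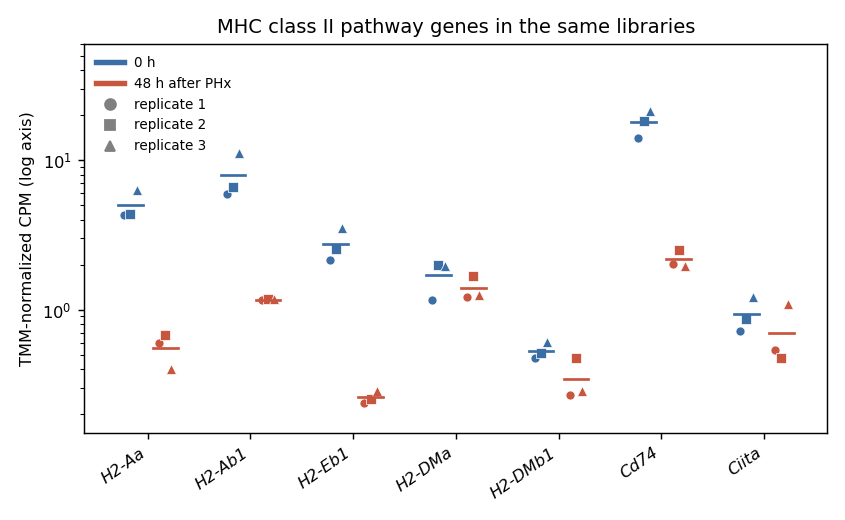
TMM-normalized CPM (log axis) of 7 genes of the MHC class II pathway at 0 h (blue) and 48 h after PHx (red), with a symbol for each replicate and a horizontal bar at the mean. H2-Aa, H2-Ab1, H2-Eb1 and Cd74 are separated between the time points, with Cd74 at 14.2 to 21.2 CPM at 0 h and 1.97 to 2.52 CPM at 48 h. H2-DMb1 is also lower in every 48 h library, though it did not pass the test, and H2-DMa and Ciita overlap.

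Because Cd68 is a lysosomal protein, 11 genes of lysosomal membranes and hydrolases were set beside it, and 7 of the 10 tested were lower at 48 h. Among those that fell were Lamp2 (log2 fold change -0.54, edgeR adjusted p = 0.00795), Ctsd (-0.51, adjusted p = 0.00745) and Npc1 (-0.51, adjusted p = 0.00666). Lamp1 went from 537 ± 51.9 to 394 ± 6.34 CPM (SD, n = 3; edgeR adjusted p = 0.0162). With library size only, 1 of the 7 calls was left, and those of Lamp1, Lamp2, Ctsb, Ctsd, Hexa and Npc1 were lost. Per kilobase at 0 h, Lamp1 stood at 201 ± 19.4 CPM per kb and Cd68 at 4.001 ± 0.493 (SD, n = 3). A same-strand gene overlaps 34.4% of the exon bases of Ctsd.

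Markers of other cells were measured in the same libraries. The 12 endothelial markers summed to 286 to 443 CPM at 0 h and to 200 to 230 CPM at 48 h, and 11 of them were lower at 48 h in edgeR's test. Fcgr2b (log2 fold change -1.11), Kdr (-1.06), Lyve1 (-1.04) and Clec4g (-0.94) fell most, and Stab2 and Ptprb had log2 fold changes of -0.73 and -0.93. The call of Lyve1 was lost without replicate 3 at 0 h or replicate 2 at 48 h, and that of Clec4g, whose ranges overlapped, without replicate 2 at 0 h. In all, 7 endothelial genes were called lower without replicate 3 at 0 h and 8 with library size only. The 10 other Kupffer cell genes summed to 48.7 to 70.2 CPM at 0 h and to 69.3 to 79.3 CPM at 48 h. The monocyte genes Ly6c2 and Ccr2 had 1 to 2 and 0 to 4 counts per library, and the list of 10 monocyte genes summed to 1.26 to 1.72 CPM at 0 h and 2.66 to 3.15 CPM at 48 h. S100a4 was at 0 in all 6 libraries, although a same-strand gene overlaps 51.7% of its exon bases and reads there could have been lost. Plac8, the 1 monocyte gene tested, had a log2 fold change of 0.79 (edgeR adjusted p = 0.0281), a call lost under 7 of 13 alternatives, among them the fits without replicate 1 or 2 at either time point.

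The 12 neutrophil genes summed to 1.13 to 1.23 CPM at 0 h and 1.04 to 1.54 CPM at 48 h, with Mpo, Ltf and Retnlg at 0 in every library and S100a8 and S100a9 at 0 to 1 and 0 to 3 counts. The only neutrophil gene tested, Csf3r, fell by 1.15 on the log2 scale (edgeR adjusted p = 0.0106). The 9 lymphocyte genes had at most 8 counts in any library, with Cd3e at 0 to 4 and Cd3g at 0 to 2, and none was tested. Of 10 stellate cell and fibroblast genes, 9 were tested: Col1a1, a chain of type I collagen, rose from 0.815 ± 0.0665 to 4.02 ± 0.841 CPM (SD, n = 3; log2 fold change 2.30, edgeR adjusted p = 4.58e-05), and Reln fell (log2 fold change -0.82, edgeR adjusted p = 0.00752). Lrat, which esterifies retinol in stellate cells, and Des did not pass (edgeR adjusted p = 0.14997 and 0.695). Without replicate 1 at 0 h, 5 of these genes in place of 1 were called lower, with Lrat (log2 fold change -0.99, edgeR adjusted p = 0.0110), Dcn, Rgs5 and Ngfr beside Reln. Of 12 hepatocyte genes, 4 fell, among them Apoa2, Ttr and Alb (log2 fold changes -1.40, -1.32 and -0.86), and Fgb, a fibrinogen chain, rose (0.84, edgeR adjusted p = 0.0198, lost without replicate 1 or 3 at 0 h). The transferrin gene Trf did not pass (log2 fold change -0.01, edgeR adjusted p = 0.982), and a same-strand gene overlaps 63.5% of its exon bases. The part of any of these cells in the levels of the 9 genes was not tested.

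Over the 6 libraries, the genes whose log2 CPM followed that of Marco most closely were Mcm6, Jak3, Pkp1, Amot and Ska1, with Pearson's r of 0.999 each, out of 13329 genes averaging 1 CPM or more. Such likeness was common, since 2244 of these genes had r above 0.9, and it measures little beyond a difference between the 2 time points. Among the 9 genes, r with Marco was 0.96 for Cd68 and 0.87 for Cd5l, and -0.05 for Clec4f. The genes closest to Clec4f were Adgre5, Dpysl3, Gm43654, Gimap4 and Podxl, with r of 0.961 to 0.976, and 45 genes had r above 0.9. Csf1r (0.86) and Adgre1 (0.76) were the members nearest to Clec4f. These correlations are descriptions over 6 libraries that share their depth and their cell content between genes.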

How the data were processed

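Bulk RNA-Seq libraries of mouse hepatocytes at 0 h and 48 h after PHx (3 each, grouped by their titles) were used. The authors deposited raw counts of reads per gene in the layout of htseq-count, with no normalization. The submitters' processing notes name Trim Galore 0.6.4, STAR 2.6, HTSeq 0.12.4, DESeq2 and mm10, and the counting mode and strand setting are not given in the sources used here. Reads on no gene (24.3% to 32.7% of the reads listed) and ambiguous reads (4.27% to 5.29%) were left out. Reads that failed to align, had a poor alignment score or hit several places are given as 0 in every file.

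All 55450 gene identifiers matched GENCODE M21 on GRCm38. The test was that of edgeR 4.0.16, run in R 4.3.3 (TMM, glmQLFit, glmQLFTest, time as the only term, at least 10 counts in at least 3 libraries, Benjamini-Hochberg adjustment over 17037 genes, threshold 0.05). The standard error is the log2 fold change divided by the square root of the F statistic. CPM per kb divides by the union of annotated exons. The fit was tested on simulated data first.

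The 9 genes and the lists of other genes were chosen with earlier results of these data known. The genes named are all 9 members, the first 2 genes of each list, up to 4 genes of each list with the largest changes past the threshold, and the 5 genes most correlated with Marco and with Clec4f. Others were named after their values were seen: the remaining genes singled out in the lists (such as Fcna, Cd14, Itgam, S100a4, Stab1, Dcn, Rgs5, Ngfr, Ciita, H2-DMa and H2-DMb1) and Lyz1. The sequence motifs were also chosen after the values were seen. Alternatives were library size only, DESeq2's size factors, upper quartile, DESeq2 1.42.0, no count filter, at least 1 CPM in at least 3 libraries, a replicate block, leaving out each library, and, added after seeing the data, scaling to C1q counts. Reads carry no molecular identifiers, so floors cover counting error only. Some genes of the lists are not reported here. The labels do not tie libraries to animals. The study describes the preparations as separate mice.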

Additional observations from a re-analysis of the deposited data

How the results depend on the processing

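Of the 9 genes, 3 were called higher under every one of 13 alternatives. Over all genes tested, 21.4% were called higher in the main fit, and 2649 to 5308 genes were over the alternatives. The alternatives refit the same 6 libraries for genes chosen with the contrast known, so they carry no added test. The log2 fold change of Marco ranged from 3.08 to 3.35 over the 6 fits that leave out 1 library. It was 3.40 with library size only, its largest move. Library size only shifted the median of all genes by 0.20 and left 2110 genes called lower in place of 3288, with 5308 in place of 3638 called higher. The higher share of all calls moves with it, so changes near 0 depend on the scaling. With library size only, 0 of the 9 genes were called lower in place of 1, and between 0 and 2 were when 1 library was left out. Among the 10 other Kupffer cell genes, 3 in place of 2 were called higher with library size only, 1 with the upper quartile, and 1 in place of 0 lower without a count filter. Leaving out 1 library gave 1 to 2 higher and 0 to 1 lower. Among the macrophage genes shared with other blood cells, 2 in place of 1 were higher with library size only, with DESeq2 and without a count filter, and 1 to 2 when 1 library was left out. The cause was not tested. Scaled to C1q counts, Clec4f, Csf1r and Adgre1 had log2 ratios of -0.21, -0.42 and -0.46. Replicates with the same number come from different mice. Their deviations from the group means correlated at 0.03, -0.07 and -0.14. With the replicate block, edgeR called 3237 genes higher and 2884 lower. Of the 9 genes it called 3 higher and 1 lower, and Marco had a log2 fold change of 3.20. With 3 libraries a group, Timd4, with 36 to 83 counts per library, is the least precise of the 9.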

Other observations

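Some genes stayed below the filter on low counts but are known for macrophages that respond to injury. Trem2, a lipid receptor of such macrophages, had 0, 0 and 1 counts at 0 h and 12, 18 and 8 counts at 48 h. Gpnmb, a glycoprotein of macrophages with a high lysosomal load, had 1, 0 and 2 counts at 0 h and 16, 8 and 3 counts at 48 h. Without a filter, both were called higher by edgeR's test (adjusted p = 4.09e-05 and 0.00844). The neutrophil granule gene Camp had 2, 3 and 0 counts at 0 h and 6, 19 and 26 counts at 48 h, and Elane, another, had 5, 1 and 3 counts at 0 h and 13, 16 and 8 counts at 48 h, while Mpo and Ltf were at 0 in all libraries. These counts are close to the floor of 3 counts, and these genes were singled out after their values were seen.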
